A study of Mus musculus with 16 samples.

Results

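The genes described here encode the parts of the inflammasome that intestinal epithelial cells are known to carry: the sensors Nlrp6, Aim2, Nlrc4, Naip1 and Naip5, the adaptor Pycard, the caspases Casp1 and Casp4, the cytokine Il18 and the pore protein Gsdmd. They were chosen by symbol from count tables of 2 gut regions that each list 46882 genes, and all 10 were found. Every member also passed the filter on low counts, which left 16001 genes for testing.

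The 16 libraries came from RedMUC298trTg mice aged 6 to 8 weeks, a line with an mCherry-tagged MUC2 reporter that makes mucus-producing cells red. Living epithelial cells from distal colon (DC) and from small intestine section 8 (Si8) were sorted into mCherry-positive goblet cells and mCherry-negative other cells, which the labels call colonocytes and enterocytes. These are 4 groups of 4 libraries, named DC other, DC goblet, Si8 other and Si8 goblet, and a library is named by the S number of its title. All 4 groups carry the reporter, and the labels name no treatment. Goblet RNA was purified on a different column type from that of the other cells, so column and cell type cannot be told apart. Which libraries come from separate animals is not in the labels, so a p-value speaks only of how these libraries vary, and that variation may be technical.

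An inflammasome is a cytosolic complex in which a sensor that has met a microbial product, through the adaptor ASC where it needs one, gathers and activates caspase-1. The caspase matures interleukin-18 and cuts gasdermin D, whose freed end makes pores in the plasma membrane. In the gut epithelium, NLRP6 has been linked to mucus secretion and NAIP-NLRC4 to the expulsion of infected cells, and epithelial interleukin-18 is stored as a precursor that is made without prior stimulation.

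The sorts carried their markers. Muc2, the main secreted mucin, averaged 39.9 CPM (counts relative to the library total, scaled by the trimmed mean of M-values, TMM) in DC other and 10033 in DC goblet cells, and 54.1 in Si8 other and 39440 in Si8 goblet cells. Library totals ranged from 11.9 to 18.5 M counts in DC and from 30.8 to 41.1 M in Si8. Mitochondrially encoded genes had no counts in the DC libraries and took 3.19 to 8.36% of the counts in the Si8 libraries, so region, depth and counting cannot be told apart. Within Si8, the libraries S5 to S8 had lower scaling factors (0.792 to 0.885) than S1 to S4 (0.933 to 1.00) and stood apart for some members. Fold changes from each set alone are given where they bear on a value. In sorted bulk samples, fewer cells of a type and less RNA per cell cannot be told apart.

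The sorted fractions also differed in other cells. The summed level of 10 intraepithelial lymphocyte markers ranged from 7.25 to 8.35 CPM in DC other and from 2.18 to 3.09 in DC goblet libraries, where Cd3g, Gzma, Gzmb, Cd7 and Nkg7 were at 0. The same sum ranged from 243 to 369 CPM in Si8 other and from 13.7 to 23.1 in Si8 goblet libraries. The sum of 10 macrophage and dendritic markers was 6.83 to 10.1, 4.50 to 6.40, 52.8 to 89.6 and 34.0 to 65.5 CPM in DC other, DC goblet, Si8 other and Si8 goblet libraries, with no marker at 0 in any group. Surface colonocyte markers (6 genes, among them Krt20 and Slc26a3) summed to 6231 to 7079 CPM in DC other and 161 to 246 in DC goblet libraries, while Si8 other and Si8 goblet libraries held 2719 to 4098 and 967 to 1851. Paneth cell markers (5 genes) summed to 10265 to 28024 CPM in Si8 goblet and 580.0 to 1545 in Si8 other libraries, against at most 23.4 in DC. In DC goblet libraries Ang4 held 18.7 CPM of a mean sum of 21.0, and Defa24 and Defa17 had no counts in either DC sort. Enteroendocrine markers (6 genes) summed to 387 to 501 CPM in DC other and 57.4 to 80.9 in DC goblet libraries, and to 312 to 447 and 107 to 192 in Si8. Mast cell markers (4 genes) held 26.8 to 187 CPM in Si8 other libraries and 0.307 to 0.502 in Si8 goblet libraries. The goblet minus other difference of the log2 sum in DC and Si8 was -1.37 and -2.55 for 6 enterocyte markers, -1.15 and -3.68 for 5 B and plasma cell markers and -2.05 and -2.49 for 4 stromal markers. It was 0.49 for 5 stem and 0.63 for 5 proliferation markers in Si8. In Si8 other libraries Jchain held 44.0 CPM of a mean B and plasma sum of 46.9. Of 3 B and plasma markers tested as single genes, 1 was lower in goblet cells of each region and none was higher. A list of 9 interferon-stimulated genes ranged from 171 to 192 CPM in DC other and from 69.5 to 102 in DC goblet libraries, with a log2 difference of -1.01 in DC and -0.83 in Si8.

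The sum of each list differed between the sorts of a region at 0.0286 by a two-sided exact permutation test, the smallest p that 4 against 4 libraries allow (0.0364 adjusted over 28 tests), with 6 exceptions. Macrophage and dendritic, tuft and interferon-stimulated sums in Si8 each had 0.0571 (adjusted 0.064), and stem, proliferation and tuft sums in DC had 0.971, 0.171 and 0.486. Their part in the results that follow was not tested.

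The mouse Naip genes are near copies on the minus strand of chromosome 13, and this bears on every Naip value. In the GENCODE M21 annotation (GRCm38, the same build as mm10), Naip1 lies at chr13:100407764-100452869 and Naip5 at chr13:100211739-100246323. Their coding sequences, each 4209 bases, were 91.9% identical over 4206 aligned bases, with 174 bases as the longest identical run. The stretch below shows how alike they are: 90 coding bases of each, read 5′ to 3′, with the bases that differ in capitals. The Naip1 stretch is at chr13:100426463-100426552 and that of Naip5 at chr13:100222531-100222620.
Naip1: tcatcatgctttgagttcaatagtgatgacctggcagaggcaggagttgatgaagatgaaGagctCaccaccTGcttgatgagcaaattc
Naip5: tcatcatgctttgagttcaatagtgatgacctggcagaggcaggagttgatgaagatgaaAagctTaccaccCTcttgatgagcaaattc
The pair differs at 4 bases here, which is also the median over all such stretches. Of all 50-base windows of the transcripts, 31.0% in Naip1 and 36.0% in Naip5 also occur in another Naip gene or in the pseudogene Naip3. At 100 bases these shares were 12.9% and 15.7%. How reads that fit several copies were counted is not given in the sources used here, so the split between copies is uncertain.

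In the distal colon, 8 of the 10 genes were lower in goblet cells than in other cells and none was higher. The background is large: 27.9% of all tested genes were lower and 27.8% higher (55.7% together) in this comparison, from edgeR's quasi-likelihood test at a Benjamini-Hochberg adjusted p under 0.05. The median log2 fold change of the 10 genes was -1.34, against 0.03 for all tested genes. The Si8 comparison had 7 genes lower and none higher, where 31.8% of all genes were lower and 33.1% higher (64.9% together), and the median was -0.69 against 0.03. Nlrp6, Nlrc4, Naip1, Casp1, Il18 and Gsdmd were lower in goblet cells of both regions.

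**Figure D1:**
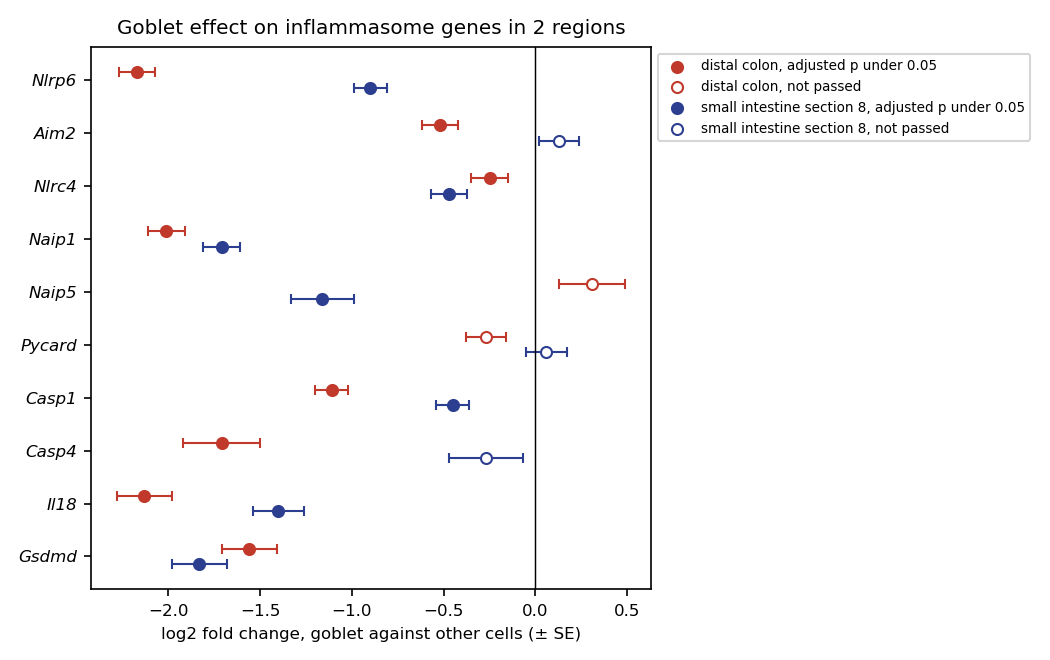
Log2 fold change of goblet against other cells for each of the 10 genes (x axis, points with ± SE from edgeR) in DC (red) and Si8 (blue); filled points passed an adjusted p under 0.05. The DC values of Nlrp6, Naip1 and Il18 lie beyond -2, and only Naip5 in DC and Aim2 and Pycard in Si8 lie above 0.

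Among the sensors, Nlrp6 showed a level that set all 4 groups apart. It lies at chr7:140920902-140929192 on the plus strand and encodes a NOD-like receptor of intestinal epithelium. DC other libraries S10, S12, S14 and S17 had 181, 189, 187 and 172 CPM, and DC goblet libraries S9, S11, S13 and S18 had 35.1, 48.1, 39.0 and 39.9. In Si8, other libraries S1, S3, S5 and S7 had 281, 309, 284 and 288 CPM, and goblet libraries S2, S4, S6 and S8 had 167, 169, 129.9 and 158. No library of any group overlapped with those of another, in the order Si8 other, DC other, Si8 goblet, DC goblet.

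Nlrp6 fell 4.49-fold in DC goblet cells (log2 fold change -2.17 ± 0.10 SE, adjusted p = 5e-13) and 1.87-fold in Si8 goblet cells (-0.90 ± 0.09, adjusted p = 7.5e-08). The DC effect minus the Si8 effect was -1.27 ± 0.13 on the log2 scale (adjusted p = 4.4e-07). The sums of surface colonocyte, enterocyte, enteroendocrine, lymphocyte, B and plasma, mast and stromal markers also fell in the goblet sort of both regions. Those of goblet and Paneth markers rose in both, though the Paneth sum in DC was low and mostly Ang4. The part of these cells in the Nlrp6 values was not tested. The goblet sort held 3.84-fold less Nlrp6 RNA in DC than in Si8 (log2 -1.94 ± 0.10, adjusted p = 1.5e-12), and the sort of other cells 1.59-fold less (-0.67 ± 0.09, adjusted p = 2.7e-06). Enterocyte marker sums averaged 438 CPM in DC goblet and 2326 in Si8 goblet libraries, and the part of such cells in this difference was not tested.

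Aim2, the sensor of cytosolic DNA (chr1:173350879-173466040, plus strand), had its higher levels in DC. Its levels were 80.1 ± 4.98 CPM in DC other and 56.0 ± 3.24 in DC goblet cells, but 14.7 ± 2.38 in Si8 other and 16.1 ± 1.91 in Si8 goblet cells (SD, n = 4 each). Every DC library, at 52.7 CPM or more, lay above every Si8 library, at 18.2 or less. Aim2 was 5.45-fold higher in DC than Si8 among other cells (log2 2.45 ± 0.11, adjusted p = 1.9e-13) and 3.48-fold higher among goblet cells (1.80 ± 0.11, adjusted p = 2.5e-11). In DC, goblet cells had 1.43-fold less than other cells (-0.52 ± 0.10, adjusted p = 0.00029). In Si8 the goblet and other groups overlapped (0.13 ± 0.11, adjusted p = 0.304), and the goblet effects of the regions differed by -0.65 ± 0.15 (adjusted p = 0.00232).

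Nlrc4, the partner that NAIP proteins activate (chr17:74425438-74459142, minus strand), had the opposite regional order. It was at 82.8 ± 5.03 CPM in DC other, 69.4 ± 9.13 in DC goblet, 228 ± 27.1 in Si8 other and 164 ± 14.1 in Si8 goblet cells. Its level in Si8 was 2.75-fold that in DC among other cells and 2.37-fold among goblet cells (log2 of DC against Si8 -1.46 ± 0.10 and -1.24 ± 0.10, adjusted p = 1.7e-10 and 2.9e-09). The Si8 goblet effect was -0.47 ± 0.10 (adjusted p = 0.0004), with no overlap between the groups. In DC the groups overlapped and the effect was -0.25 ± 0.10 (adjusted p = 0.0401). That call was lost when DC other library S10, S12 or S14, or DC goblet library S11 or S13, was left out (adjusted p from 0.0612 to 0.171). DC and Si8 goblet effects differed by 0.22, which did not pass (adjusted p = 0.265). The log2 difference of DC from Si8 other cells was -1.30 against S1 and S3 and -1.61 against S5 and S7.

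Naip1, whose protein detects the needle of bacterial type III secretion systems, was higher in other cells than in goblet cells of both regions. DC other libraries S10, S12, S14 and S17 held 406, 421, 404 and 411 CPM, and DC goblet libraries S9, S11, S13 and S18 held 119, 91.9, 97.3 and 98.8. Si8 other libraries S1, S3, S5 and S7 held 299.5, 290.4, 349 and 354 CPM, and Si8 goblet libraries S2, S4, S6 and S8 held 94.2, 93.0, 116 and 92.3. The goblet groups of the regions overlapped, and both lay far under the other cells. Naip1 was 4.04-fold lower in DC goblet cells (log2 -2.01 ± 0.10, adjusted p = 1.7e-12) and 3.27-fold lower in Si8 goblet cells (-1.71 ± 0.10, adjusted p = 1.5e-11). With the reads of all Naip genes summed, the effects were -0.47 and -0.80.

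The regional difference of Naip1 was small. Other cells of DC had 1.27-fold more than those of Si8 (log2 0.34 ± 0.09, adjusted p = 0.00339), which missed the threshold with Si8 libraries S5 to S8 alone (0.21, adjusted p = 0.0667) and was -1.21 for the summed Naip genes. Goblet cells of the regions differed by 0.04 ± 0.10 (adjusted p = 0.734). The difference of the goblet effect, -0.30, had an adjusted p of 0.094, which was 0.0313 without DC goblet library S9 and 0.0391 with Si8 libraries S1 to S4 alone.

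Naip5, a flagellin sensor, followed another order, with Si8 above DC in every library. DC other libraries S10, S12, S14 and S17 held 66.3, 73.2, 64.4 and 64.8 CPM, and DC goblet libraries S9, S11, S13 and S18 held 85.3, 78.4, 85.5 and 83.8. Si8 other libraries S1, S3, S5 and S7 held 301, 273, 460.0 and 476 CPM, and Si8 goblet libraries S2, S4, S6 and S8 held 132, 135, 214 and 192. Libraries S5 and S7, and S6 and S8, were higher than the other 2 of their group.

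In Si8, Naip5 was 2.24-fold lower in goblet cells (log2 -1.16 ± 0.17, adjusted p = 1.7e-05), with values of -1.11 from libraries S1 to S4 and -1.21 from S5 to S8. In DC the goblet libraries were all above the other libraries, but the effect of 0.31 ± 0.18 did not pass (adjusted p = 0.147). It passed at 0.29 when only the DC groups were fitted (adjusted p = 0.00109) and with either set of Si8 libraries alone (adjusted p = 0.00094 and 0.00049). For the sum of all Naip genes, a value of the family and not of Naip5, the DC effect was -0.47 (adjusted p = 0.00529). The goblet effects of the regions on Naip5 differed by 1.47 ± 0.25 (adjusted p = 0.00018), and those on the summed genes by 0.32 (adjusted p = 0.205). Other cells of DC had 5.62-fold less Naip5 than those of Si8 (-2.49 ± 0.18, adjusted p = 1.7e-09), with -2.09 against S1 and S3 and -2.81 against S5 and S7. Among goblet cells the difference was -1.02 ± 0.18 (adjusted p = 8.3e-05), with -0.69 against S2 and S4 and -1.29 against S6 and S8.

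The other Naip copies were set beside Naip5. Naip6, also a flagellin sensor, had means of 168, 248.9, 1089 and 716 CPM in DC other, DC goblet, Si8 other and Si8 goblet cells, the same order of groups as Naip5 from the top down (Si8 other, Si8 goblet, DC goblet, DC other). It rose in DC goblet cells (log2 0.57 ± 0.15, adjusted p = 0.00357) and fell in Si8 goblet cells (-0.60 ± 0.15, adjusted p = 0.00171). DC lay below Si8 by -1.52 ± 0.15 among goblet cells (-1.23 against S2 and S4, -1.78 against S6 and S8) and by -2.70 ± 0.16 among other cells (-2.39 against S1 and S3, -2.95 against S5 and S7), with adjusted p of 7e-08 and 2.2e-11 over all libraries. Naip2, a sensor of the secretion system's inner rod, averaged 172, 163, 166 and 167 CPM in the same groups and passed no comparison (adjusted p from 0.431 to 0.925). The pseudogene Naip3 had 50.1, 25.2, 76.8 and 15.2 CPM.

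Levels per kilobase of exon compare genes only as far as the annotated exon length is that of the transcripts present. By this measure the ratio of Naip5 to Naip1 was 0.174 (0.168 to 0.185 over 4 libraries) in DC other cells and 0.877 (0.765 to 0.935) in DC goblet cells. In Si8 it was 1.22 (0.999 to 1.43) in other cells and 1.80 (1.49 to 2.21) in goblet cells. The ratio of Naip6 to Naip1 ran from 0.332 in DC other to 5.85 in Si8 goblet cells, with 1.99 and 2.71 between them. Thus Naip1 led Naip5 and Naip6 in DC other cells, while in Si8 goblet cells both stood above it.

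**Figure D2:**
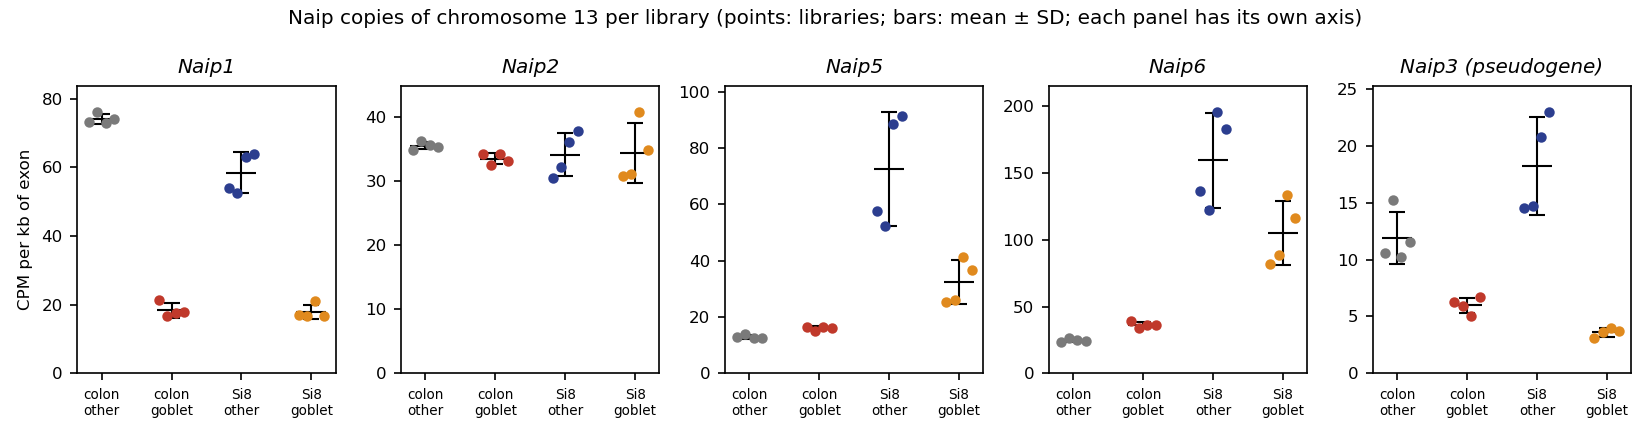
Level per library in CPM per kilobase of exon (y axis, each panel with its own scale from 0) for Naip1, Naip2, Naip5, Naip6 and the pseudogene Naip3 in the 4 groups; bars give mean ± SD. Naip5 and Naip6 are highest in Si8, Naip1 is highest in DC other cells, and Naip2 is level across the groups.

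Pycard encodes ASC, the adaptor that joins many sensors to caspase-1, and lies at chr7:127989708-127993867 on the minus strand. Its level was 137 ± 17.1 CPM in DC other, 113 ± 9.003 in DC goblet, 244 ± 34.7 in Si8 other and 254 ± 32.5 in Si8 goblet cells. Goblet and other libraries overlapped in both regions (log2 -0.27 ± 0.11, adjusted p = 0.0524 in DC, and 0.06 ± 0.11, adjusted p = 0.682 in Si8). The DC value passed under the 6 alternatives of scaling, filter, fitted groups and test, with adjusted p from 0.00925 to 0.0421 at about the same size, also without DC other library S12 or S17, DC goblet library S13, Si8 other library S3 or Si8 goblet library S2 (0.0178 to 0.0484), and with either set of Si8 libraries alone (0.0134 and 0.0101). The goblet effects of the regions differed by -0.32 (adjusted p = 0.134), which passed with no filter on low counts (-0.35, 0.044) and without Si8 other library S3 (-0.41, 0.0459). Each DC library lay under each Si8 library, and the log2 fold change of DC against Si8 was -1.16 ± 0.11 among goblet cells and -0.84 ± 0.11 among other cells (adjusted p = 3.8e-08 and 2e-06). From S1 to S4 these were -1.30 and -0.99, and from S5 to S8 -1.02 and -0.68. Pycard shares 485 exon bases with Gm45205 on the opposite strand, and whether counting used strand is not given in the sources used here.

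Casp1, the protease that inflammasomes activate, and Casp4, which in mouse is caspase-11 and binds cytosolic lipopolysaccharide, are neighbours on chromosome 9 (chr9:5298517-5307265 and chr9:5308828-5336783, both on the plus strand). DC other libraries S10, S12, S14 and S17 had 114, 143, 131 and 129 CPM of Casp1, and DC goblet libraries S9, S11, S13 and S18 had 60.8, 60.6, 55.8 and 62.5. Si8 other libraries ranged from 151.5 to 192 and Si8 goblet libraries from 105 to 134. Goblet libraries lay under other libraries in each region without overlap. The fall was 2.15-fold in DC (log2 -1.11 ± 0.09, adjusted p = 4.3e-09) and 1.36-fold in Si8 (-0.45 ± 0.09, adjusted p = 0.00027), and these differed by -0.66 ± 0.13 (adjusted p = 0.0005).

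Casp4 stood out by a single low group. DC goblet libraries S9, S11, S13 and S18 had 31.1, 27.4, 14.3 and 28.8 CPM, while the other 3 groups overlapped between 60.4 and 103. S13 was the lowest in DC goblet cells, as S14 was in DC other cells (60.4 against 81.5 to 103). Casp4 was 3.28-fold lower in goblet than other cells of DC (log2 -1.71 ± 0.21, adjusted p = 3.5e-06) and did not pass in Si8 (-0.27 ± 0.20, adjusted p = 0.251), and the difference between the regions was -1.44 ± 0.29 (adjusted p = 0.00108). Between the regions, it was lower in DC goblet cells (-1.59 ± 0.21, adjusted p = 6.7e-06) but not called in other cells (-0.15 ± 0.20, adjusted p = 0.539). The Si8 goblet effect was -0.47 from S1 to S4 and -0.12 from S5 to S8, and the difference of the goblet sorts was -1.37 and -1.79. Casp1 was lower in DC in both (-1.03 ± 0.09, adjusted p = 1.1e-08, and -0.37 ± 0.09, adjusted p = 0.00141).

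**Figure D3:**
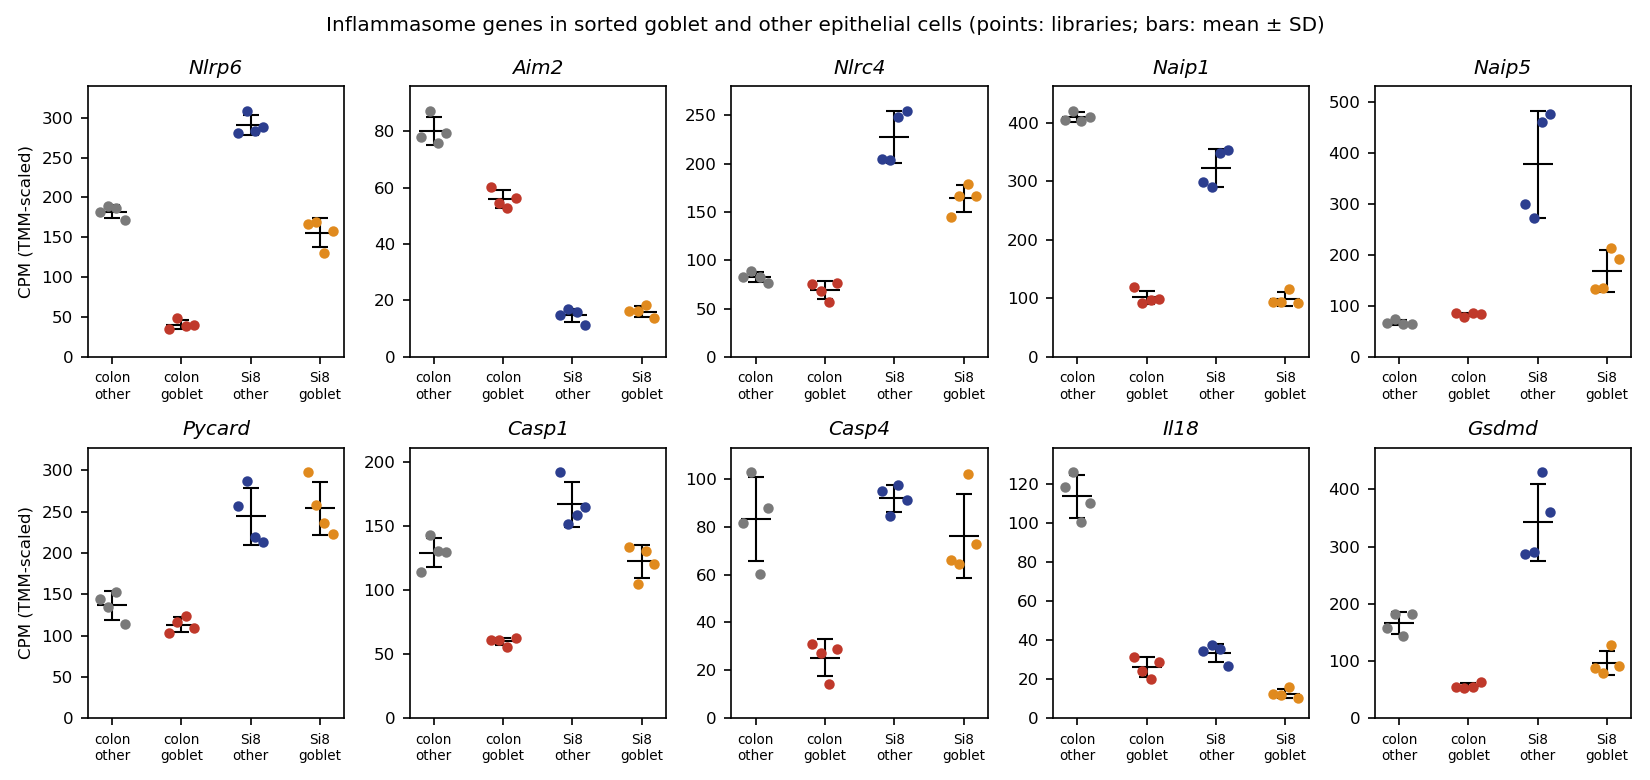
CPM of each of the 10 genes in the 16 libraries (y axis, from 0; TMM-scaled totals), by group on the x axis; points are libraries and bars are mean ± SD. Aim2 and Il18 are highest in DC other cells, Nlrp6, Nlrc4, Naip5 and Gsdmd in Si8 other cells, and Casp4 has a single low group, DC goblet.

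Il18, the cytokine precursor that caspase-1 cuts, was like Aim2 in being higher in DC. It lies at chr9:50554827-50581840 on the plus strand. DC other libraries S10, S12, S14 and S17 had 118, 126, 101 and 111 CPM, and DC goblet libraries S9, S11, S13 and S18 had 31.5, 24.1, 19.9 and 29.1. Si8 other libraries S1, S3, S5 and S7 had 34.6, 37.5, 35.4 and 26.7, and Si8 goblet libraries S2, S4, S6 and S8 had 12.4, 12.04, 15.9 and 10.5. DC goblet and Si8 other libraries overlapped, and no other neighbours in the order did.

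Goblet cells had 4.37-fold less Il18 in DC (log2 -2.13 ± 0.15, adjusted p = 3.9e-10) and 2.64-fold less in Si8 (-1.40 ± 0.14, adjusted p = 1e-07), a difference of -0.72 ± 0.20 (adjusted p = 0.00943). The Si8 value was -1.57 from S1 to S4 and -1.24 from S5 to S8. DC was above Si8 by 3.40-fold among other cells and 2.05-fold among goblet cells (1.76 ± 0.14, adjusted p = 2.2e-09, and 1.04 ± 0.15, adjusted p = 6.2e-06). Il18bp, the secreted inhibitor of interleukin-18, ran the other way between the regions, at 4.08 ± 0.456, 2.53 ± 0.485, 23.3 ± 3.23 and 16.7 ± 3.49 CPM in DC other, DC goblet, Si8 other and Si8 goblet cells. It was 5.70-fold lower in DC than Si8 other cells (adjusted p = 4.4e-11) and 6.59-fold lower in goblet cells (adjusted p = 4.8e-11). The receptor chain Il18r1 stayed under 0.6 CPM in every library.

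Gsdmd, the pore-forming gasdermin (chr15:75862327-75867408, plus strand), was highest in Si8 other cells and had no overlap between any groups. DC other libraries S10, S12, S14 and S17 had 157, 182, 144 and 183 CPM, and DC goblet libraries S9, S11, S13 and S18 had 54.6, 53.3, 54.2 and 63.8. Si8 other libraries S1, S3, S5 and S7 had 287, 291, 430.2 and 361, and Si8 goblet libraries S2, S4, S6 and S8 had 87.1, 79.9, 127 and 92.0. Libraries S5 and S7 again lay above S1 and S3.

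The goblet effect on Gsdmd was -1.56 ± 0.15 in DC (2.95-fold lower, adjusted p = 4.4e-08) and -1.83 ± 0.15 in Si8 (3.54-fold lower, adjusted p = 4.1e-09). The difference between the regions, 0.26, did not pass (adjusted p = 0.352). DC was below Si8, with log2 fold changes of -0.78 ± 0.15 among goblet cells (adjusted p = 0.00016) and -1.04 ± 0.14 among other cells (adjusted p = 4e-06). Against S1 to S4 alone these log2 values were -0.57 and -0.79, and against S5 to S8 alone -0.96 and -1.26.

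Between the regions, DC goblet cells were lower than Si8 goblet cells for 7 of the 10 genes and higher for 2, Aim2 and Il18, where 31.5% of all genes were lower and 30.6% higher (62.1% together). The members' median log2 fold change was -1.02, against -0.02 for all genes. Among other cells, 6 were lower in DC and 3 higher (Aim2, Il18 and Naip1), where 33.6% of all genes were lower and 33.3% higher (66.9% together), and the median was -0.52 against 0. The goblet effect itself differed between the regions for 6 genes: 5 more negative in DC (Nlrp6, Aim2, Casp1, Casp4 and Il18) and 1 more positive (Naip5). Over all genes 16.5% passed this test as more negative in DC and 15.6% as more positive, 32.1% together.

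Levels per kilobase of exon ranked the genes differently in each sort. DC other cells were led by Il18 (111 CPM per kilobase), Casp1 (86.3), Naip1 (74.1) and Gsdmd (70.1), with Naip5 last at 12.9. Si8 other cells were led by Gsdmd (144), Casp1 (111) and Naip5 (72.5), with Aim2 last at 4.19. Goblet cells of both regions were led by Casp1 and Pycard, at 40.0 and 29.9 in DC and 81.7 and 66.8 in Si8. The lowest were Casp4 (6.84) and Nlrp6 (7.98) in DC goblet cells, and Aim2 (4.59) and Il18 (12.3) in Si8 goblet cells. The ratio of Casp1 to Pycard per kilobase was 2.44 ± 0.419 in DC other and 1.35 ± 0.159 in DC goblet cells, and 1.76 ± 0.284 in Si8 other and 1.23 ± 0.177 in Si8 goblet cells (SD, n = 4 each). The exon length joins all annotated exons of a gene, 3800 bases in 3 blocks for Pycard and 1497 in 10 for Casp1. Which transcripts were present was not determined, so the ranks and ratios between genes depend on that length and can mislead.

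Sequence before the start sites is shown for the 3 members with the largest goblet fall in DC, Nlrp6, Il18 and Naip1. The windows are 250 bases up to the start site in RefSeq (GRCm38.p6), read 5′ to 3′ on the strand of the gene, with matches to TATAAA on either strand in capitals. They lie at chr7:140920652-140920901 (plus strand), chr9:50554450-50554699 (plus strand) and chr13:100452865-100453114 (minus strand).
Nlrp6: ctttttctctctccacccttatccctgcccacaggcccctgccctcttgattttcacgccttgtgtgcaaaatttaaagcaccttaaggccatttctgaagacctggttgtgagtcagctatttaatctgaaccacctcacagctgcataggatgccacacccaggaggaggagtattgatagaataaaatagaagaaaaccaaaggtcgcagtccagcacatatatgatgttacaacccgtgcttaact
Il18: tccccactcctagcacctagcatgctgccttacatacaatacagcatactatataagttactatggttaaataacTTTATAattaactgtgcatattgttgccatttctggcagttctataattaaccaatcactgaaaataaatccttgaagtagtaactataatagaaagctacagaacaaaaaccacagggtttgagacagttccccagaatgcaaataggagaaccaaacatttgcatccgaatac
Naip1: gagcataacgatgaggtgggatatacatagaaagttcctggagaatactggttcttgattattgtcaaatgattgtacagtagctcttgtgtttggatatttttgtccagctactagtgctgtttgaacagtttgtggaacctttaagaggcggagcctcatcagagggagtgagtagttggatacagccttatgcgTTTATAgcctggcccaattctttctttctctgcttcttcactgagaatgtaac
Promoter windows of 300 bases, which add 50 bases after the start, were held by 9 of the 10 members, all but Gsdmd. TATAAA, on either strand, occurred in 3 of the 9: Il18 (175 bases before the start), Naip1 (53) and Naip5 (236), and in 13.6% of all 32851 windows. The core of an interferon-stimulated response element (GAAA, any 2 bases, GAAA, on either strand) was in none of the 9 and in 3.44% of all windows, and TTCNNNGAA, the core of a gamma-activated sequence, in none and in 8.3%. TATAAA was the only motif matched in the members' windows, so no matches overlapped there.

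The wider pathway was described with 4 lists of 63 genes, of which 56 were tested. In DC, 30 of the 56 were lower and 10 higher in goblet cells (median log2 -0.71), and in Si8 31 were lower and 9 higher (median -0.50). Over all genes, as given above, 27.9% were lower and 27.8% higher in DC and 31.8% and 33.1% in Si8, with a median of 0.03 in both, and counts of the short lists that follow can lie near these shares. Of 8 other sensors tested, 5 were lower and 1 higher in DC goblet cells, and 7 were lower in Si8. The 13 other caspases, gasdermins and death adaptors had 8 lower and 3 higher in DC and 5 lower and 2 higher in Si8. Among 11 interleukin-1 family genes, 6 were lower and 2 higher in DC, and 7 lower and 1 higher in Si8. The 24 regulators and interferon-induced helpers had 11 lower and 4 higher in DC and 12 lower and 6 higher in Si8.

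Nlrp9b, an epithelial sensor of viral RNA, had a larger goblet fall than any member in both regions. Its level was 79.2 ± 5.08 CPM in DC other, 1.98 ± 0.317 in DC goblet, 177 ± 64.5 in Si8 other and 19.7 ± 3.83 in Si8 goblet cells, a fall of 40.4-fold (log2 -5.34 ± 0.28, adjusted p = 6.2e-11) and 8.96-fold (-3.16 ± 0.22, adjusted p = 2e-09). Nlrp3, the sensor best known from macrophages, was near the limit of detection, with 54, 1, 56 and 11 counts in all in DC other, DC goblet, Si8 other and Si8 goblet cells. Il1b, the other cytokine that caspase-1 matures, fell in DC goblet cells (-5.96 ± 1.00, adjusted p = 0.00014), from 7.23 CPM to 0.126, which is 8 counts in 4 libraries, and in Si8 goblet cells (-3.01 ± 0.64, adjusted p = 0.00085), from 6.63 to 0.804 CPM. In Si8 goblet cells Mndal, of the same family as Aim2, fell from 2.14 to 0.243 CPM (-3.14 ± 0.38, adjusted p = 6.7e-07). It also passed in DC (adjusted p = 0.0316), on 14 counts in other and 2 in goblet cells. Nlrp10 was 10.7-fold higher in DC than Si8 goblet cells (4.77 against 0.449 CPM, adjusted p = 1.6e-09). The lymphocyte marker sums given above were lower in the goblet sort of both regions without overlap. Those of macrophages and dendritic cells overlapped in Si8, where Itgam held most of the sum (50.5 CPM in other and 40.0 in goblet cells). Of these 10 markers, 8 were lower and 0 higher in Si8 goblet cells, against 31.8% and 33.1% of all genes. The part of these cells in the falls above was not tested.

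Other genes of the execution arm followed several patterns. Dfna5, which encodes gasdermin E, was 32.9-fold lower in DC than Si8 other cells (6.43 against 213 CPM, log2 -5.04 ± 0.25, adjusted p = 1.4e-11) and rose in DC goblet cells (1.20 ± 0.24, adjusted p = 0.00043). Gsdma fell in DC goblet cells (-2.61 ± 0.44, adjusted p = 5.1e-05) from a low level of 1.44 CPM. Casp6 was higher in goblet than other cells by 1.80-fold in DC (0.85 ± 0.12, adjusted p = 4.4e-06) and 1.78-fold in Si8 (0.83 ± 0.11, adjusted p = 2.7e-06), and these effects differed by 0.02 ± 0.16 (adjusted p = 0.952). Casp12 was 11.7-fold lower in DC than Si8 goblet cells (adjusted p = 4.4e-09).

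Among the 56 pathway genes tested, the largest log2 differences in favour of DC were those of 2 interleukin-1 family genes. Il1r1, the signalling receptor, had 17.02 ± 2.64 CPM in DC other and 31.9 ± 2.34 in DC goblet cells but 0.117 and 0.149 in the Si8 sorts, a log2 difference of 7.15 ± 0.23 among other cells (adjusted p = 1.1e-15) and 7.72 ± 0.22 among goblet cells (adjusted p = 1.7e-16). The receptor antagonist Il1rn followed, at 89.9 and 26.1 CPM in DC other and goblet cells and 3.49 and 0.790 in Si8 (log2 4.69 ± 0.17 and 5.03 ± 0.20, adjusted p = 1.3e-14 and 5.3e-14). Il1r1 was 1.87-fold higher in goblet than other cells of DC (0.91 ± 0.13, adjusted p = 8.6e-06). The decoy receptor Il1r2 fell in goblet cells of Si8 from 1.34 to 0.0540 CPM (-4.49 ± 0.57, adjusted p = 1.3e-06) and also passed in DC (adjusted p = 0.00081), where the other cells held 40 counts in all and the goblet cells 2. The difference between those effects did not pass (adjusted p = 0.949). The accessory chain Il1rap rose in Si8 goblet cells from 5.27 to 9.15 CPM (0.80 ± 0.11, adjusted p = 3.4e-06) but was not called in DC (0.05 ± 0.11, adjusted p = 0.741), and the effects differed by -0.75 ± 0.16 (adjusted p = 0.00094).

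Among the regulators, P2rx7, the ATP-gated channel upstream of NLRP3, moved in opposite directions. It rose 5.28-fold in DC goblet cells, from 2.35 ± 0.443 to 12.5 ± 1.18 CPM (log2 2.4 ± 0.16, adjusted p = 2.3e-10), and fell in Si8 goblet cells, from 5.12 ± 0.887 to 1.63 ± 0.259 (-1.66 ± 0.16, adjusted p = 2.7e-08), a difference of 4.06 ± 0.23 (adjusted p = 9e-11). Gbp2, an interferon-induced guanylate-binding protein, fell in DC goblet cells (17.9 to 6.28 CPM) and rose in Si8 goblet cells (20.1 to 98.2), a difference of -3.82 ± 0.47 (adjusted p = 1.9e-05). Nek7, a kinase that NLRP3 needs, was 6.85-fold higher in DC than Si8 other cells (2.78 ± 0.08, adjusted p = 4e-16). Gm12250 (Irgb10) and Gbp6 were lower in DC than Si8 other cells, with log2 fold changes of -4.71 ± 0.32 and -4.54 ± 0.29 (adjusted p = 2.5e-10 and 4e-10).

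**Figure D4:**
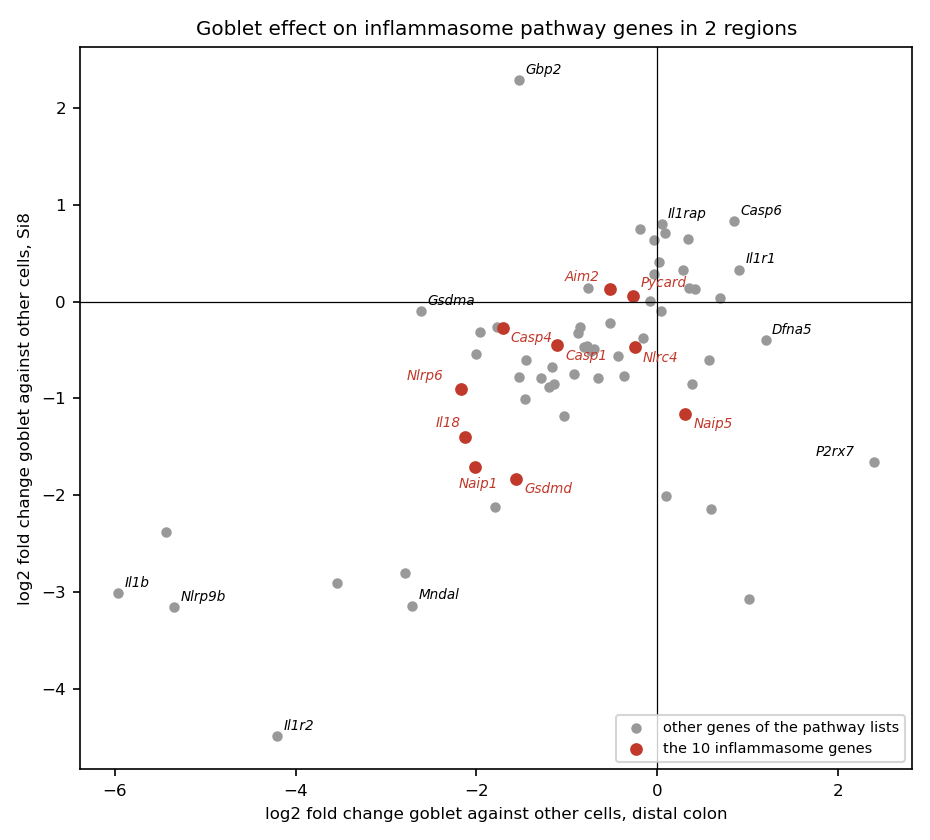
Log2 fold change of goblet against other cells in DC (x axis) and Si8 (y axis) for the 10 inflammasome genes (red) and 56 other genes of the pathway (grey), 1 point a gene; the named grey points are the 3 highest and 3 lowest in each region of those that passed and averaged 1 CPM or more in the higher group. Gbp2 is the highest point on the y axis, left of 0 on the x axis, and P2rx7 is the farthest to the right, below 0 on the y axis.

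Likeness was Pearson's r of log2(CPM + 0.5) over the 16 libraries, among 9139 genes whose mean over all 16 libraries reached 10 CPM. By this measure the genes most like Nlrp6 were Pvrl3 (0.987), Coro2a (0.987), Sgpp2 (0.985) and Stom (0.985). Those most like Il18 were Rdh16 (0.988), Sprr2a3 (0.981), Fam101b (0.980) and Paqr8 (0.978). The 16 libraries fall into 4 groups, so these values describe the order of the groups and are given without a test. Stom, for example, averaged 179, 9.49, 387 and 111 CPM in DC other, DC goblet, Si8 other and Si8 goblet cells, the group order of Nlrp6.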

How the data were processed

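Bulk RNA was measured in 16 libraries, 4 in each of 4 groups taken from the labels. The authors deposited raw read counts per gene in 1 table for each region. Per the submitters' processing notes, which give no roles, the build was mm10 and the tools named are DESeq2 1.14, HTSeq 0.6.1p1, STAR 2.4.0f and FastQC 0.11.2. Annotation, parameters and strand setting: not given in the sources used here. A deposited table of counts divided by size factors was not used here. Left out were 4 entries with repeated symbols, and 0 columns of per-sample values were unused.

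The test was that of edgeR 4.0.16 (R 4.3.3) on the counts: TMM scaling, filterByExpr by group, 1 robust quasi-likelihood fit over the 4 groups with no covariate, and 5 contrasts. P-values were adjusted by Benjamini-Hochberg over the 16001 genes tested, with a threshold of 0.05. Standard errors were derived as |log2 fold change| divided by √F. The procedure was tested on simulated counts for the DC goblet contrast, with known changes in some genes and the same spread for all. That setting is simpler than these data and does not speak for the other contrasts. No pair of libraries in a group agreed within counting noise, so none was treated as a repeat deposit, which does not show that they came from separate animals. CPM per kilobase divides by the joined length of all exons annotated for the gene in GENCODE M21, and Naip coding sequences were aligned with mafft 7.526. Marker lists were summed per library.

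The members, gene lists and rules were chosen with earlier results of these data known. All 10 members are named. Of the pathway lists, the called genes named per contrast are the 3 at either end of the log2 fold change whose higher group averages 1 CPM or more. Naip2, Naip3, Naip6, Nlrp3, Il18bp and Il18r1 were added for their relation to members. Likeness was computed for Nlrp6 and Il18. The alternatives were DESeq2 size factors, DESeq2 1.42.0 itself, no filter, only the groups compared, totals without mitochondrially encoded or the 20 highest genes, all Naip genes summed, each library left out, and, chosen after seeing the data, Si8 libraries S1 to S4 or S5 to S8 alone, this set as a covariate, and libraries with neighbouring S numbers as a block.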

Additional observations from a re-analysis of the deposited data

Results flagged for a closer look

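In 40 groups of 4 libraries, the distance of the highest or lowest library to its nearest neighbour was compared with the range of the group, and chance marks about 1 in 20 groups. The gap was 0.922 of the range for Naip1 in Si8 goblet cells, where S6 had 116 CPM, and 0.879 for Gsdmd in DC goblet cells, where S18 had 63.8 CPM. Both exceed Dixon's 95% limit for groups of this size.

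For 6 genes the goblet effect differed between DC and Si8 by the edgeR test of the difference itself, given here as the DC log2 effect minus that of Si8. The value was -1.27 for Nlrp6 (adjusted p = 4.4e-07), -1.44 for Casp4 (0.00108), -0.72 for Il18 (0.00943), -0.66 for Casp1 (0.0005), -0.65 for Aim2 (0.00232) and 1.47 for Naip5 (0.00018). All 4 DC goblet libraries of Nlrp6, Casp1, Casp4, Il18 and Aim2 lay under all 4 DC other libraries, and those of Naip5 above them. Of all tested genes, 55.7% were called between these DC sorts and 32.1% passed the test of the difference. How many of all genes separate without overlap was not counted.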

How the results depend on the processing

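Each of the 50 pairs of a member and a comparison was recomputed under 25 or 26 alternatives, and Naip1 and Naip5 also with all Naip genes summed. Of the 1280 values, 1233 kept their direction and their side of the threshold, 30 passed only under the alternative, 7 no longer passed and 10 reversed. Members called numbered 8 in DC (7 to 10 over the alternatives), 7 in Si8 (7 to 8), 9 between goblet sorts (9 in each), 9 between other sorts (8 to 9) and 6 for the difference between regions (6 to 9). Calls over all genes moved too, from 8258 to 10028 in DC, 7763 to 11390 in Si8 and 4131 to 6921 for the difference. Between goblet sorts they ran from 9176 to 10416, and between other sorts from 9718 to 11641. The sum of all Naip genes is a value of the family, not of 1 copy, and the totals of values above set it against Naip1 and Naip5. Its sign was opposite to that of Naip5 in DC goblet against other cells (-0.47). It was also opposite to that of Naip1 in DC against Si8 goblet cells (-0.89), in other cells (-1.21) and for the difference between regions (0.32). Naip1 in DC against Si8 goblet cells also reversed to -0.02 without the low-count filter and to -0.04 with Si8 libraries S5 to S8, and ranged from -0.05 to 0.12 with each library left out. Pycard in Si8 goblet cells ranged from -0.03 to 0.15 in the same way. The cause was not tested. No analysis with a documented pairing was possible, because the groups share no S number and no label states a pairing. Goblet and other libraries with neighbouring S numbers (S1 and S2, and so on) were compared by their deviations from the group means. Across 16001 genes r ran from 0.1 to 0.5 in the 8 pairs, with 0.37 to 0.5 in Si8 and 0.1 to 0.41 in DC. Libraries that are not neighbours were not compared in this way. In Si8, r therefore cannot tell a pairing of neighbours from the difference between S1 to S4 and S5 to S8. With these assumed pairs as a block, chosen after seeing the data, 10 members were called in DC, 8 in Si8 and 9 for the difference between regions, none was lost, and those gained were Naip5 (0.31, adjusted p = 0.00047) and Pycard (-0.26, 0.00341) in DC, Casp4 in Si8 (-0.29, 0.0189), and Naip1 (-0.31, 0.0178), Pycard (-0.32, 0.0139) and Gsdmd (0.27, 0.0238) for the difference. With the Si8 set as a covariate in place of pairs, these numbers were 10, 7 and 8, without Casp4 and Gsdmd. Calls over all 16001 genes rose as well. In DC, in Si8 and for the difference they numbered 8911, 10383 and 5133 in the main fit. With pairs they were 10028, 11390 and 6921, and with the set 9371, 10770 and 5833. Counting depth limits Nlrp3, Il1b and Il1r2, with 1, 8 and 8 counts in all in the goblet sort described, not the 10 members, whose lowest group sum was 1809.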
